A study of Mus musculus with 12 samples.

Results

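The 9 genes described here encode the oxygen sensors and the transcription factor subunits of the hypoxia-inducible factor (HIF) pathway: the prolyl hydroxylases Egln1, Egln2 and Egln3, the asparagine hydroxylase Hif1an, the ubiquitin ligase subunit Vhl, the alpha subunits Hif1a, Epas1 and Hif3a, and the shared partner Arnt. They were chosen by gene symbol, with earlier results of these data known. All 9 were found among the 15663 genes of the joined tables, with 300 to 22737 reads in each library. Messenger RNA was measured by RNA sequencing of hearts from mouse embryos at embryonic day 9.5, in 12 libraries of 4 genotype groups with 3 libraries each. The double mutant hearts were NkxCre.Asb2fl/fl.Flnafl/fl and the Asb2 cKO (conditional knockout) hearts were NkxCre.Asb2fl/fl. The Flna-labelled hearts were NkxCre.Asb2fl/+.Flnafl/fl and the control hearts were NkxCre.Asb2fl/+. All 4 groups thus carried a Cre recombinase driver written NkxCre and at least 1 floxed Asb2 allele, on a strain given as C57/BL 6. A floxed allele is removed only in cells in which the driver is or has been active, and the other cells of the heart keep it. Whether each library is a separate embryo or litter is not given, and p-values therefore speak of the scatter among the sequenced libraries, some of which may be technical.

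Cells that have enough oxygen hydroxylate the HIF alpha subunits on prolines, using the EGLN enzymes, and the VHL protein binds the hydroxylated subunits and marks them for degradation. HIF1AN hydroxylates an asparagine in the transactivation domain and so blocks coactivator binding. When oxygen is scarce the alpha subunits persist, pair with ARNT and activate genes of glycolysis, vessel growth and oxygen sensing, among them Egln1 and Egln3 themselves, and the pathway is active in the embryonic heart. Since most of this control acts on protein, transcript levels say how much of each component's message was present and not how active the pathway was.

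Levels are given in CPM, read counts scaled to a common library size by the authors, and in CPM per kb of the deposited gene length where genes are compared with each other. Libraries held 25954539 to 42473118 reads in listed genes. The 12 cardiomyocyte markers were all detected. They summed to 29918 to 45936 CPM in double mutant and 25109 to 42461 CPM in Asb2 cKO hearts. In Flna-labelled hearts they summed to 18598 to 34446 CPM, against 30921 to 46047 CPM in controls. In Flna-labelled against control hearts 0 of 12 were called, where 0.072% of all genes were. Their log2 fold changes there ran from -1.09 to -0.39, with a median of -0.62. Asb2 read 121 to 153 CPM in double mutant, 77.8 to 163 CPM in Asb2 cKO and 113 to 197 CPM in Flna-labelled hearts, against 183 to 289 CPM in controls. It was thus lower but present in the hearts with both alleles floxed, and overlapped between these and the Flna-labelled hearts. Flna was not lower where its deletion is labelled: it read 1012 to 1146 CPM in double mutant and 958 to 1011 CPM in Flna-labelled hearts, and 725 to 1032 CPM in Asb2 cKO hearts without that label, against 490.3 to 721 CPM in controls. The deletion of Flna rests on the label alone, and counts over a whole gene and all cells do not show the loss of single exons. The series' design text names single and double mutants and 2 control samples, and does not say whether the Flna-labelled hearts are among the controls. Markers of primitive erythroid cells, 9 of 10 of them listed (Ahsp was not), summed to 353 to 600 CPM in double mutant, 511 to 1207 CPM in Asb2 cKO and 3054 to 3934 CPM in Flna-labelled hearts, against 7439 to 8061 CPM in controls. Markers of the pharyngeal endoderm and surface ectoderm (11) summed to 342 to 581 CPM in double mutant, 444 to 617 CPM in Asb2 cKO and 234 to 436 CPM in Flna-labelled hearts, against 226 to 303 CPM in controls. In Asb2 cKO against control hearts 7 of 11 were called higher and 0 lower, where 10.7% of all genes were higher and 10.9% lower. In double mutant against control hearts 2 of 10 tested were called higher and 0 lower, where 15.6% of all genes were higher and 16.7% lower. Markers of the liver bud and yolk sac endoderm (7) summed to 1.71 to 2.53 CPM in double mutant, 2.74 to 103 CPM in Asb2 cKO and 119 to 454 CPM in Flna-labelled hearts, against 7.05 to 272 CPM in controls. The female-specific transcript Xist was at or above 106 CPM in Asb2 cKO libraries 1 and 3 and control libraries 2 and 3, and at or below 9.34 CPM in the other libraries. Flna lies on chromosome X, and every double mutant and Flna-labelled library was among those low in Xist. Asb2 cKO library 2 and control library 1 were low in Xist too. The Flna label and the Xist level thus cannot be fully told apart, and the genotypes are given as labelled. The part of these markers and of Xist in the results was not tested beyond the values given beside them. In bulk RNA, fewer cells of a type and less RNA per cell cannot be told apart.

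The 3 prolyl hydroxylase genes moved in different directions when both Asb2 alleles were floxed. Egln3 and Egln1 were higher in double mutant and Asb2 cKO hearts than in control hearts, Egln3 by 10.3-fold in double mutant and 9.12-fold in Asb2 cKO hearts and Egln1 by 3.47-fold in double mutant and 3.13-fold in Asb2 cKO hearts. Egln2 was lower, at 0.68 of the control level in double mutant and 0.634 in Asb2 cKO hearts. The promoters of these genes are shown because these 3 paralogs parted and because HIF binds short DNA cores, here searched as ACGTG and GCGTG on both strands. Each window runs from 250 bases before to 50 bases after a RefSeq start site (GRCm38.p6), 5′ to 3′ on the gene's strand, with the cores or their reverse complements in capitals.

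Egln3 promoter, chr12:54203825-54204124, minus strand: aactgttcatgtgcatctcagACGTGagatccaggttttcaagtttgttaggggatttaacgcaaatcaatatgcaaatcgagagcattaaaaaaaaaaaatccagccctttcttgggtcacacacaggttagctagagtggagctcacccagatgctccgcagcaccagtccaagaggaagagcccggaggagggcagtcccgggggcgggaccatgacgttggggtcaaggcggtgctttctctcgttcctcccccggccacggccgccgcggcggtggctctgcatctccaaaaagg
Egln1 promoter, chr8:124949205-124949504, minus strand: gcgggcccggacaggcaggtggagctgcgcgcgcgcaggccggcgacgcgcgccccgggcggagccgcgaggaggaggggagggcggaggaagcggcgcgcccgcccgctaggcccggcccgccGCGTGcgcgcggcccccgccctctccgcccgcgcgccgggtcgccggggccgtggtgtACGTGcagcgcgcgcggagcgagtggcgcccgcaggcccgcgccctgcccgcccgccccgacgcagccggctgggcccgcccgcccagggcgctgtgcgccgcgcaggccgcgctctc
Egln2 promoter, chr7:27166753-27167052, minus strand: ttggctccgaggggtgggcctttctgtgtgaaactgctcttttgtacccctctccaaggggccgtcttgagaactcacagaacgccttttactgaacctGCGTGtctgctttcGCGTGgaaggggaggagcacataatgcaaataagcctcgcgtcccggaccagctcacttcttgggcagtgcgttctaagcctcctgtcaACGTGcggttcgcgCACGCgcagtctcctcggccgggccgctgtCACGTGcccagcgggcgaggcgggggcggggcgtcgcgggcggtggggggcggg

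The Egln3 window held 1 core, an ACGTG that began at position -229 from the start site. The Egln1 window held 2 cores, a GCGTG at position -126 and an ACGTG at position -68. The Egln2 window held 6 matches, 3 of each core, of which 2 overlap in the palindrome CACGTG, and a second RefSeq start of Egln2 had 1 GCGTG in its window. Of 32851 mouse promoter windows of the same length, 43.77% held at least 1 core, 20.64% at least 2 and 0.694% at least 6. Of these 3 genes, Egln2, which was lower, had the most matches. Sequence outside the windows was not searched, and the part of the cores in the changes was not tested. These matches describe letters in a window and not bound sites.

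Egln3 (ENSMUSG00000035105, chromosome 12, 54178981 to 54203860 on the minus strand, GRCm38), also known as PHD3, is the prolyl hydroxylase gene best known as a HIF target. Its libraries 1, 2 and 3 read 119.9, 97.1 and 109 CPM in double mutant hearts and 74.0, 144 and 81.1 CPM in Asb2 cKO hearts, against 9.87, 8.92 and 11.4 CPM in control hearts. The lowest library with both Asb2 alleles floxed was thus far above the highest control library, and Asb2 cKO library 2 stood above the other Asb2 cKO libraries. The log2 fold change against the control was 3.37 ± 0.14 (SE) in double mutant hearts, a 10.3-fold rise (limma on log2(CPM + 0.5), adjusted p = 6.44e-07). It was 3.19 ± 0.23 in Asb2 cKO hearts, a 9.12-fold rise (limma, adjusted p = 4.79e-05), and 2.89 to 3.37 over all alternative settings. Adjusted p-values are Benjamini-Hochberg over all genes tested.

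Egln1 (ENSMUSG00000031987, chromosome 8, 124908587 to 124949324, minus strand), or PHD2, is the main sensor of oxygen for HIF1A in most tissues. Its libraries read 542, 499 and 489 CPM in double mutant hearts and 374, 592 and 438 CPM in Asb2 cKO hearts, against 154, 142 and 143 CPM in control hearts. The groups did not overlap, and library 2 was again the highest of the Asb2 cKO libraries. Its fold over the control was 3.47 in double mutant hearts (log2 1.79 ± 0.10, limma adjusted p = 3.62e-06) and 3.13 in Asb2 cKO hearts (log2 1.65 ± 0.17, limma adjusted p = 0.000241).

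Egln2 (ENSMUSG00000058709, chromosome 7, 27158658 to 27166802, minus strand), or PHD1, is the prolyl hydroxylase gene not known for induction by hypoxia. It read 92.6, 99.01 and 76.05 CPM in double mutant hearts and 78.5, 73.4 and 97.7 CPM in Asb2 cKO hearts, against 142, 126 and 124 CPM in control hearts. Every library with both Asb2 alleles floxed was below every control library. The log2 fold change was -0.56 ± 0.12 in double mutant hearts (limma, adjusted p = 0.0076) and -0.66 ± 0.14 in Asb2 cKO hearts (limma, adjusted p = 0.00996). Egln2 shares 11 exon bases with Cyp2t4 on the other strand, and the strand setting of the counting is not given in the sources used here.

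**Figure D1:**
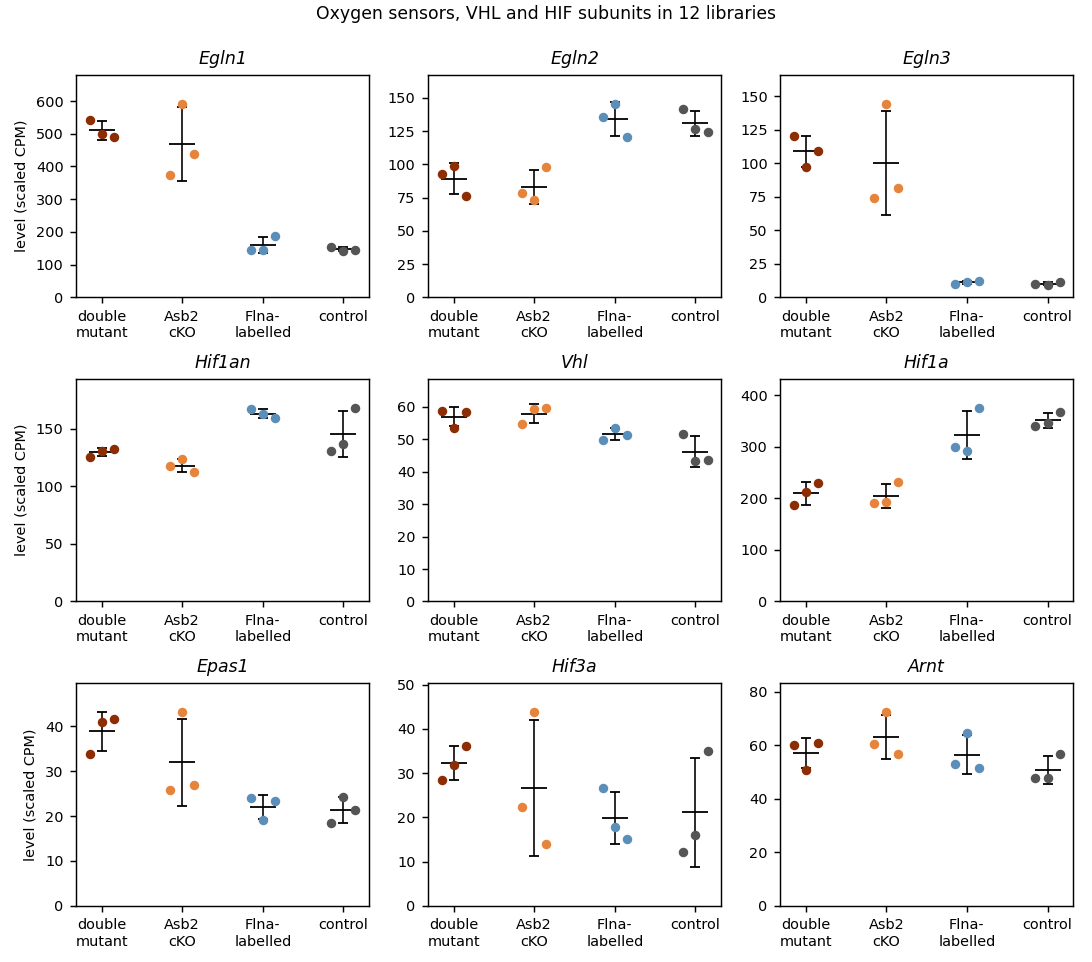
Level of each of the 9 genes in CPM in each library, with groups from left to right double mutant, Asb2 cKO, Flna-labelled and control, and a bar at each group mean. Egln1 and Egln3 stand higher and Hif1a and Egln2 lower in all 6 double mutant and Asb2 cKO libraries than in all 6 Flna-labelled and control libraries.

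Per kb of gene length, the order of the 3 prolyl hydroxylase transcripts changed between genotypes. In control hearts Egln2 averaged 42.0 ± 3.01 CPM per kb and Egln1 41.8 ± 1.88 CPM per kb (SD, n = 3), so these neighbours did not differ beyond their spread, and Egln3 was at 3.79 ± 0.47 CPM per kb. In double mutant hearts Egln1 stood at 145 ± 8.03, Egln3 at 40.9 ± 4.3 and Egln2 at 28.6 ± 3.8 CPM per kb (SD, n = 3), 3 levels that did not overlap. In Asb2 cKO hearts Egln1 stood at 133 ± 32.0, Egln3 at 37.6 ± 14.6 and Egln2 at 26.7 ± 4.11 CPM per kb, with Egln3 and Egln2 overlapping. Flna-labelled hearts had Egln1 at 45.2 ± 7.0, Egln2 at 43.0 ± 4.07 and Egln3 at 4.18 ± 0.37 CPM per kb, the order of the first 2 lying within their spread. Egln1 thus made up 67.7% of the summed Egln level in double mutant and 67.3% in Asb2 cKO hearts, against 47.7% in controls. Egln2 made up 13.3% in double mutant and 14.05% in Asb2 cKO hearts, against 47.9% in controls. The Egln3 share was 19.7, 17.4 and 20.1% in double mutant and 17.5, 22.03 and 16.3% in Asb2 cKO libraries, against 3.99, 3.97 and 5.04% in control libraries. The sum of the 3 was higher too, at 229, 210.5 and 205 CPM per kb in double mutant and 159, 247 and 187 CPM per kb in Asb2 cKO libraries, against 93.1, 84.5 and 85.04 CPM per kb in control libraries. These shares and sums were not tested apart from the genes that make them up.

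**Figure D2:**
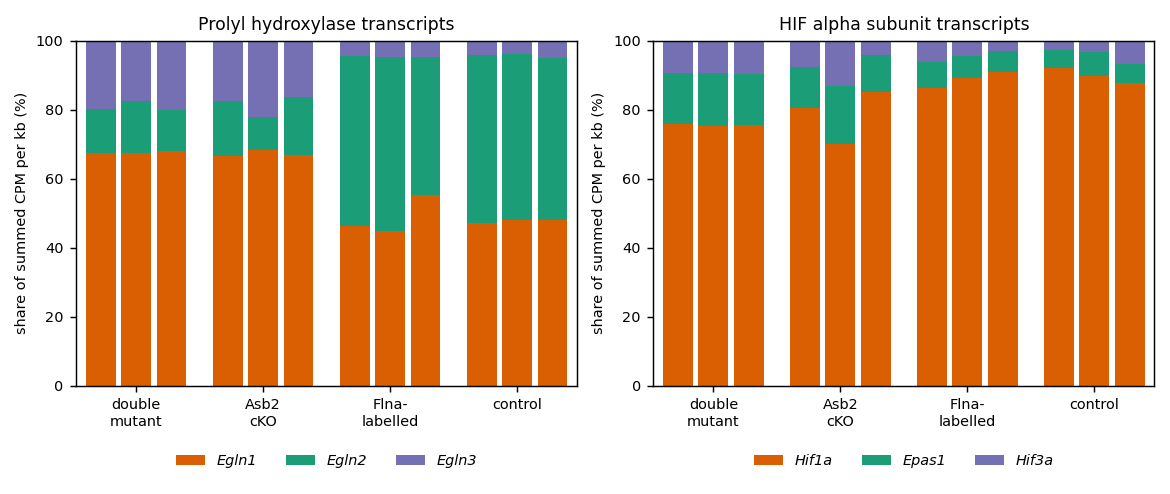
Share of the summed CPM per kb of the 3 prolyl hydroxylase genes (left) and of the 3 HIF alpha subunit genes (right) in each library, groups in the order double mutant, Asb2 cKO, Flna-labelled, control. Egln2 makes up 9.56 to 16.8% of its family in double mutant and Asb2 cKO libraries, against 40.1 to 50.5% in Flna-labelled and control libraries.

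Hif1an and Vhl, the asparagine hydroxylase and the recognition subunit that acts after the prolyl hydroxylases, did not pass the test against the control in either mutant group. Hif1an (ENSMUSG00000036450, chromosome 19, 44562850 to 44576274, plus strand) read 126, 131 and 132 CPM in double mutant and 118, 123 and 112 CPM in Asb2 cKO hearts, against 131, 137 and 168 CPM in control hearts. Control library 3 stood above the other control libraries. The log2 fold change of Hif1an was -0.16 (95% interval -0.41 to 0.10, limma adjusted p = 0.328) in double mutant and -0.29 (-0.59 to 0.00, adjusted p = 0.138) in Asb2 cKO hearts. Vhl (ENSMUSG00000033933, chromosome 6, 113623959 to 113631633, plus strand) read 58.8, 53.6 and 58.5 CPM in double mutant and 54.7, 59.4 and 59.7 CPM in Asb2 cKO hearts, against 51.7, 43.2 and 43.6 CPM in control hearts. Neither mutant group overlapped the control, yet the log2 fold change of Vhl missed the threshold of 0.05 in double mutant hearts, at 0.30 (0.05 to 0.56, limma adjusted p = 0.0695, from 0.0365 to 0.194 over the alternatives, 2 of which called it), and in Asb2 cKO hearts, at 0.33 (0.03 to 0.62, adjusted p = 0.0995, from 0.0237 to 0.273 over the alternatives, 2 of which called it). Neither promoter window held a core. The windows of Hif3a and Arnt, also not called against the control, held 2 and 1, and no window was found for Epas1.

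Hif1a (ENSMUSG00000021109, chromosome 12, 73901375 to 73947530, plus strand), the alpha subunit found in nearly all cells, was lower in hearts with both Asb2 alleles floxed. Its promoter window is shown because this change ran against that of Egln1 and Egln3. It held 3 matches to ACGTG, of which 2 overlap in CACGTG at positions -135 and -134 and the other lay at position -70, and 8.931% of all windows held at least 3 cores.

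Hif1a promoter, chr12:73907617-73907916, plus strand: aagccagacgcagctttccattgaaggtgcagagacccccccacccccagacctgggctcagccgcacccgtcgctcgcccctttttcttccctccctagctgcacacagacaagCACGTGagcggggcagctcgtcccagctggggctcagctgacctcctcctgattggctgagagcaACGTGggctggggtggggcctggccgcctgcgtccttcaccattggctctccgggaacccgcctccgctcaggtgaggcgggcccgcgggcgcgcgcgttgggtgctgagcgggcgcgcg

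Hif1a read 187, 212 and 230.2 CPM in double mutant hearts and 190.3, 192 and 231 CPM in Asb2 cKO hearts, against 339.7, 346 and 367 CPM in control hearts. The highest library of either mutant group was below the lowest control library. The log2 fold change was -0.75 ± 0.11 in double mutant hearts, 0.596 of the control level (limma, adjusted p = 0.00108). In Asb2 cKO hearts it was -0.78 ± 0.13, or 0.581 of the control level (limma, adjusted p = 0.00346). Hif1a shares 330 exon bases (5.6% of its exons) with an antisense transcript, Gm15283, which reached at most 11.6 CPM, and 148 with Gm49321 on its own strand, so a small part of the reads could belong to either.

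Epas1 (ENSMUSG00000024140, chromosome 17, 86753700 to 86833410, plus strand) encodes HIF2A, the alpha subunit known above all from endothelium. It read 33.9, 41.1 and 41.7 CPM in double mutant and 25.8, 43.2 and 27.0 CPM in Asb2 cKO hearts, against 18.5, 24.2 and 21.4 CPM in control hearts. The double mutant libraries were well clear of the controls, while Asb2 cKO libraries 1 and 3 stood just above the highest control. Epas1 rose in double mutant hearts by 0.85 ± 0.14 on the log2 scale (limma, adjusted p = 0.00222). In Asb2 cKO hearts its log2 fold change was 0.54 (95% interval 0.08 to 1.00) and missed the threshold (limma, adjusted p = 0.0844, from 0.0408 to 0.253 over the alternatives). The authors' deposited table gives 0.58 with an FDR of 0.0258 for that comparison. Without Asb2 cKO library 2, its log2 fold change was 0.31 (limma, adjusted p = 0.253).

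Endothelial markers were higher together with Epas1 in double mutant hearts. Over the 12 of that list the summed level was 1248 to 1646 CPM in double mutant and 988 to 1431 CPM in Asb2 cKO hearts, against 892 to 1060 CPM in controls. In double mutant hearts 7 of 12 rose and 0 fell against the control, where 15.6% of all genes rose and 16.7% fell, with Kdr, the VEGF receptor, at a log2 fold change of 1.19 and Pecam1, an endothelial junction protein, at 0.82. In Asb2 cKO hearts 2 of 12 rose (Kdr by 0.97, Egfl7 by 0.56) and 2 fell (Tek by 0.52, Emcn by 0.65), where 10.7% of all genes rose and 10.9% fell, and the summed levels overlapped those of controls. The part of endothelial content in the level of Epas1 was not tested.

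Hif3a (ENSMUSG00000004328, chromosome 7, 17031507 to 17062427, minus strand), whose products include inhibitors of HIF, varied more than the other 8 genes within Asb2 cKO, Flna-labelled and control hearts. It read 28.5, 31.9 and 36.2 CPM in double mutant and 22.3, 43.8 and 13.9 CPM in Asb2 cKO hearts, against 12.1, 16.1 and 35.1 CPM in control hearts. All groups overlapped the control, and its coefficient of variation was 11.9% in double mutant, 58.02% in Asb2 cKO, 30.2% in Flna-labelled and 58.2% in control hearts. Its log2 fold change was 0.74 (95% interval -0.08 to 1.56, limma adjusted p = 0.148) in double mutant and 0.32 (-0.79 to 1.43, adjusted p = 0.659) in Asb2 cKO hearts. Without control library 3 the double mutant value was 1.17 (adjusted p = 0.00238), and without Asb2 cKO library 2 the Asb2 cKO value was -0.11.

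Arnt (ENSMUSG00000015522, chromosome 3, 95434388 to 95497240, plus strand), the subunit that every HIF alpha protein pairs with, did not pass the test in any comparison. It read 60.1, 50.6 and 60.8 CPM in double mutant and 60.7, 72.5 and 56.6 CPM in Asb2 cKO hearts, against 47.6, 47.9 and 56.6 CPM in control hearts, and the groups overlapped. The log2 fold change was 0.17 (-0.10 to 0.44, limma adjusted p = 0.314) in double mutant and 0.31 (-0.00 to 0.63, adjusted p = 0.141) in Asb2 cKO hearts.

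The make-up of the alpha subunit transcripts also differed from the control, as a description that was not tested apart from the genes. Per kb, Hif1a exceeded Epas1 by a ratio of 5.16, 4.84 and 5.17 in double mutant and 6.91, 4.17 and 8.03 in Asb2 cKO libraries, against 17.2, 13.4 and 16.1 in control libraries. The ratios of the mutant groups all lay below those of the controls. Hif1a made up 75.8, 75.2 and 75.7% of the summed alpha subunit level in double mutant and 80.6, 70.1 and 85.2% in Asb2 cKO libraries, against 92.0, 89.9 and 87.7% in control libraries. It remained the most abundant alpha subunit transcript per kb in all 12 libraries. Egln1 over Hif1a, the ratio per kb of the main sensor to its main substrate, was 4.67, 3.79 and 3.42 in double mutant and 3.16, 4.95 and 3.05 in Asb2 cKO libraries, against 0.730, 0.661 and 0.629 in control libraries. The message of the sensor was thus below that of the substrate in every control library and above it in every double mutant and Asb2 cKO library.

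Against the control, 5 of the 9 genes were called in double mutant hearts, 3 higher and 2 lower, where 32.3% of all genes tested were called (15.6% higher and 16.7% lower). In Asb2 cKO hearts 4 of the 9 were called, 2 higher and 2 lower, against a background of 21.6% (10.7% higher and 10.9% lower). Their median log2 fold change was 0.30 in double mutant hearts, with 0.01 over all genes, and 0.32 in Asb2 cKO hearts, with -0.01 over all genes. The groups did not overlap for 6 of the 9 genes in double mutant against control hearts (47.8% of all genes) and for 7 in Asb2 cKO against control hearts (41.4% of all genes). The 2 comparisons share the control libraries. Among libraries with Xist, Asb2 cKO libraries 1 and 3 read 74.0 and 81.1 CPM of Egln3 and 190.3 and 231 CPM of Hif1a. Control libraries 2 and 3, which also had Xist, read 8.92 and 11.4 CPM of Egln3 and 346 and 367 CPM of Hif1a. These are few libraries, and the part of Xist in the differences was not tested by setting them side by side.

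**Figure D3:**
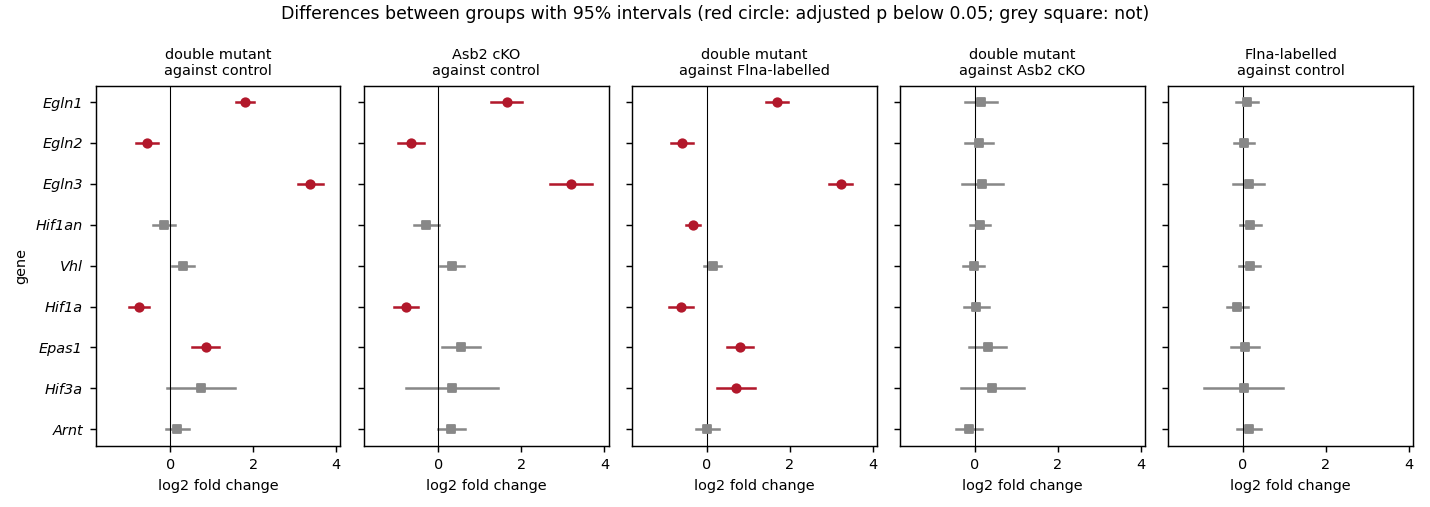
Log2 fold change of each of the 9 genes with its 95% interval from limma, for each comparison, marked where the adjusted p was below 0.05. Egln3 and Egln1 lie right of 0 and Hif1a and Egln2 left of it wherever both Asb2 alleles were floxed in the first group only, and no gene is called between double mutant and Asb2 cKO hearts or between Flna-labelled and control hearts.

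The Flna-labelled hearts are a further group with 1 floxed Asb2 allele by its label, and in them the 9 genes stood near their control levels. Egln3 read 10.04, 11.3 and 11.97 CPM, Egln1 144, 146 and 187 CPM and Hif1a 299.8, 291 and 375 CPM in their libraries 1, 2 and 3, all overlapping the controls. Egln2 read 136, 146 and 120.5 CPM, Epas1 23.9, 19.04 and 23.3 CPM, Vhl 49.7, 53.4 and 51.4 CPM and Arnt 53.2, 64.8 and 51.5 CPM, which also overlapped the controls. Hif1a made up 86.4, 89.3 and 91.0% of the alpha subunit level per kb in them, and Egln1 over Hif1a was 0.771, 0.806 and 0.802. The message of the sensor was thus below that of the substrate in these hearts too. None of the 9 passed in Flna-labelled against control hearts with limma, edgeR or DESeq2, and 0 had an unadjusted p below 0.05 with any of these, where limma called 0.072% of all genes. Fold changes ran from -0.13 for Hif1a (95% interval -0.39 to 0.13) to 0.18 for Hif1an (-0.08 to 0.43) on the log2 scale. For Egln3 the log2 fold change was 0.14 (-0.24 to 0.52) and for Egln1 0.10 (-0.16 to 0.37). The order of the 4 groups was thus the same for Egln1 and Egln3, with double mutant and Asb2 cKO hearts high and overlapping each other, and Flna-labelled and control hearts low and overlapping each other.

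Double mutant and Flna-labelled hearts both have the Flna label, and all 6 of their libraries were at or below 9.34 CPM of Xist. The erythroid markers differed between them, at 353 to 600 CPM in double mutant and 3054 to 3934 CPM in Flna-labelled hearts, and 7 of 7 liver bud and yolk sac markers were lower in double mutant hearts (median log2 -3.90). Of the endothelial markers 7 of 12 and of the cardiomyocyte markers 4 of 12 were higher in double mutant hearts. Asb2 itself did not differ by the test, with a log2 fold change of -0.10 (limma, adjusted p = 0.737), so the Asb2 difference between these groups rests on the labels. The part of these markers was not tested. Here 7 of the 9 genes were called, 4 higher and 3 lower, where 31.5% of all genes were called (15.1% higher and 16.3% lower). Egln3 was 9.39-fold higher (log2 3.23 ± 0.12, limma adjusted p = 3.4e-06) and Egln1 3.23-fold higher (log2 1.69 ± 0.12, adjusted p = 6.98e-05). Egln2 had a log2 fold change of -0.59 ± 0.12 (limma, adjusted p = 0.00752), Hif1a of -0.61 ± 0.12 (adjusted p = 0.0073) and Epas1 of 0.80 ± 0.13 (adjusted p = 0.00324). The groups did not overlap for 8 of the 9 genes, all but Arnt, where 47.5% of all genes did not. These 5 changes kept both direction and call under every alternative tried, with Egln3 between 3.08 and 3.31.

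Hif1an and Hif3a were called in this comparison and not against the control. Hif1an read 126, 131 and 132 CPM in double mutant hearts, against 167, 162 and 159 CPM in Flna-labelled hearts, with no overlap and a log2 fold change of -0.33 ± 0.08 (limma, adjusted p = 0.0128). Without Flna-labelled library 1 it was -0.31 (adjusted p = 0.0603). Hif3a read 28.5, 31.9 and 36.2 CPM in double mutant hearts, against 26.6, 17.8 and 15.1 CPM in Flna-labelled hearts, with a log2 fold change of 0.72 ± 0.20 (limma, adjusted p = 0.0276). That call was lost under 7 of the alternatives, with an adjusted p of up to 0.218. Neither gene passed between Flna-labelled and control hearts.

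Between double mutant and Asb2 cKO hearts none of the 9 passed with limma, edgeR or DESeq2, and 0 had an unadjusted p below 0.05 with any of them, where limma called 0.0214% of all genes. The log2 differences ran from -0.14 for Arnt (95% interval -0.45 to 0.17) to 0.42 for Hif3a (-0.34 to 1.18). For Egln3 the difference was 0.18 (-0.31 to 0.68), for Egln1 0.15 (-0.23 to 0.53) and for Hif1a 0.04 (-0.26 to 0.33). Only Hif1an did not overlap, at 126 to 132 CPM in double mutant and 112 to 123 CPM in Asb2 cKO hearts, where 7.88% of all genes did not overlap. The interaction of the Asb2 and Flna genotypes, fitted over all 12 libraries, called 0 of the 9 and 0 of 13981 genes with limma, and edgeR and DESeq2 called 0 of the 9 too, with 0 of the 9 at an unadjusted p below 0.05 in any of these. Its estimates for the 9 lay between -0.29 for Arnt (-0.69 to 0.11) and 0.40 for Hif3a (-0.89 to 1.69).

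Asb2 cKO library 2 was the highest of its group for Egln1, Egln3, Hif1an, Epas1, Hif3a and Arnt, and also for the HIF-induced genes described next. Their median deviation from the mean of all libraries was 1.03 (log2) there and 0.46 and 0.60 in the other Asb2 cKO libraries. The endothelial markers of that library deviated by 0.37 (log2), against -0.24 and 0.03 in the other Asb2 cKO libraries. Asb2 in it, at 163 CPM, was the highest of the group. What these values share was not tested.

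The wider pathway was read from 3 lists of genes. Of 51 genes known to be induced by HIF, Egln1 and Egln3 left aside, 50 were tested in double mutant and in Asb2 cKO hearts against the control. In Flna-labelled against control hearts 49 were tested and 0 were called, where 0.072% of all genes were. In double mutant against control hearts 46 of 50 rose and 1 fell, with a median log2 fold change of 1.57. In Asb2 cKO against control hearts 45 of 50 rose and 0 fell, with a median of 1.33. Of all genes tested, 15.6% rose in double mutant and 10.7% in Asb2 cKO hearts. Ndufa4l2, a mitochondrial protein that limits respiration, read 76.8 CPM in double mutant and 66.9 CPM in Asb2 cKO hearts, against 2.50 CPM in control hearts. Its log2 fold change was 4.71 in double mutant and 4.49 in Asb2 cKO hearts, the highest of the list in both. P4ha2, a collagen prolyl hydroxylase, rose by 2.75 in double mutant and 2.57 in Asb2 cKO hearts on the log2 scale. Stc2, a secreted stanniocalcin, rose by 3.94 in double mutant and 3.57 in Asb2 cKO hearts. Vegfa, the main vessel growth factor, rose by 2.29 in double mutant and 2.08 in Asb2 cKO hearts. Angptl4 and Pfkfb4 did not rise: in double mutant hearts Pfkfb4 fell by 0.86 and Angptl4 had a log2 fold change of -1.04 (limma, adjusted p = 0.0639). Against Flna-labelled hearts, double mutants had 47 of 50 higher and 1, Angptl4, lower, with a median of 1.42. Of all genes tested there, 15.1% were higher and 16.3% lower.

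**Figure D4:**
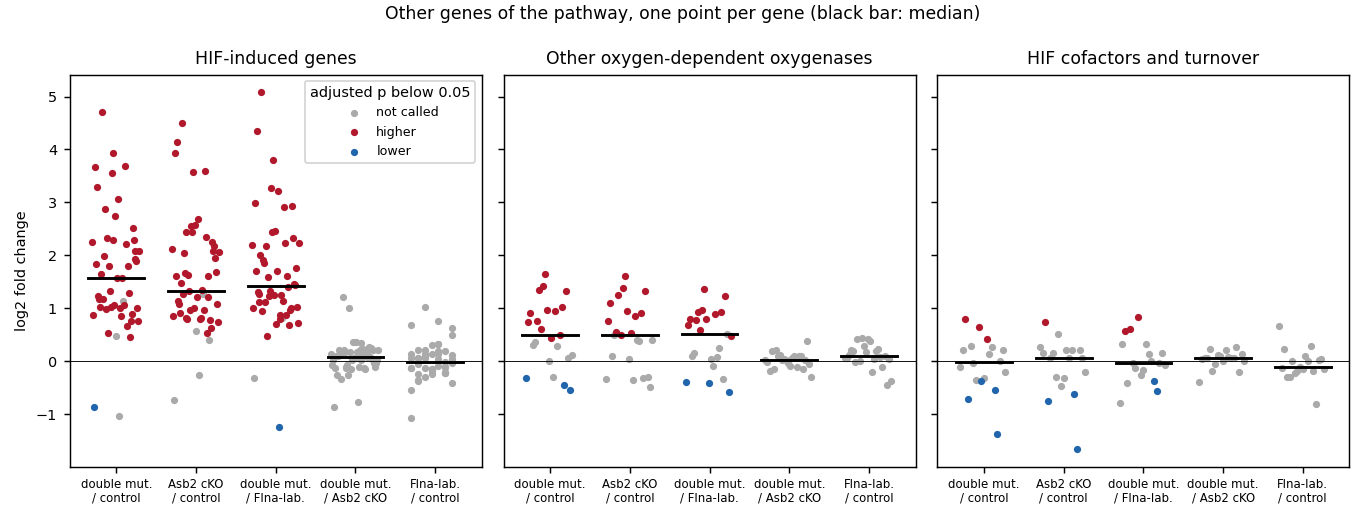
Log2 fold change of each gene of the 3 pathway lists in each comparison, marked where the adjusted p was below 0.05. Values of the HIF-induced genes are mostly positive in the 3 comparisons of Asb2 genotype. They lie around 0 between double mutant and Asb2 cKO hearts and between Flna-labelled and control hearts.

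Other oxygen-dependent oxygenases, which use oxygen and 2-oxoglutarate or another cofactor as the EGLN enzymes do, moved more often up than down. Of the 23, 13 rose and 3 fell in double mutant hearts (median log2 0.49), where 15.6% of all genes rose and 16.7% fell. In Asb2 cKO hearts 12 rose and 0 fell (median log2 0.49), where 10.7% of all genes rose and 10.9% fell. The histone demethylases Kdm5b, Kdm6b and Kdm3a, the last of which is also on the HIF-induced list, had log2 fold changes of 1.42, 1.35 and 1.34 in double mutant hearts and 1.39, 1.24 and 1.32 in Asb2 cKO hearts. Tet2, which oxidises methylcytosine, reached 1.66 in double mutant and 1.61 in Asb2 cKO hearts. Asph, an aspartyl hydroxylase, reached 0.94 in double mutant and 0.85 in Asb2 cKO hearts. In double mutant hearts Jmjd4 (-0.54), Riox2 (-0.45) and Ado, a cysteine dioxygenase and oxygen sensor of its own (-0.32), were lower. These 3 did not pass in Asb2 cKO hearts.

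The 18 HIF cofactors and turnover genes moved in both directions, with a median near 0. In double mutant hearts 3 rose and 4 fell (38.9% called, where 32.3% of all genes were), and in Asb2 cKO hearts 1 rose and 3 fell (22.2%, where 21.6% of all genes were). The coactivator gene Ep300 had a log2 fold change of 0.80 in double mutant hearts (limma, adjusted p = 0.00454) and 0.74 in Asb2 cKO hearts (adjusted p = 0.0155). Cited4, a CBP and p300 binding protein, had -1.38 in double mutant hearts (limma, adjusted p = 0.000479) and -1.65 in Asb2 cKO hearts (adjusted p = 0.000504). Commd1, which binds HIF1A, had -0.70 in double mutant and -0.76 in Asb2 cKO hearts. Eloc, the elongin C of the VHL ligase, had -0.55 in double mutant and -0.61 in Asb2 cKO hearts. Rbx1 (-0.38) fell and Crebbp (0.42) and Cited2 (0.64) rose in double mutant hearts. These shares were near the background. The count of 7 in double mutant hearts was 4 without double mutant library 2 and 3 without double mutant library 3 or without control library 2. The count of 4 in Asb2 cKO hearts was 2 without Asb2 cKO library 2 and 1 without control library 2.

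The genes whose profile over the 12 libraries was most like that of a called member were found by the mean absolute difference of centred log2(CPM + 0.5), among 12386 genes. For Egln3 they were Vldlr (0.0866), Nrn1 (0.211) and Pik3ip1 (0.236). Vldlr averaged 193 CPM in double mutant and 163 CPM in Asb2 cKO hearts, against 18.9 CPM in Flna-labelled and 17.96 CPM in control hearts. For Egln1 they were P4ha1 (0.0828), Mxi1 (0.0988) and Hk2 (0.101), and for Hif1a Gfm1 (0.0705), Pde12 (0.0784) and Agfg2 (0.0837). Egln2 came nearest to Zdhhc16, Mrps27 and Cuta, Hif1an to Prkar2a, Dicer1 and Ppp6r1, and Hif3a to Sstr4, Arhgef6 and Srrm4. All these values share the 12 libraries and their normalization, and a small distance says only that levels moved alike.

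**Figure D5:**
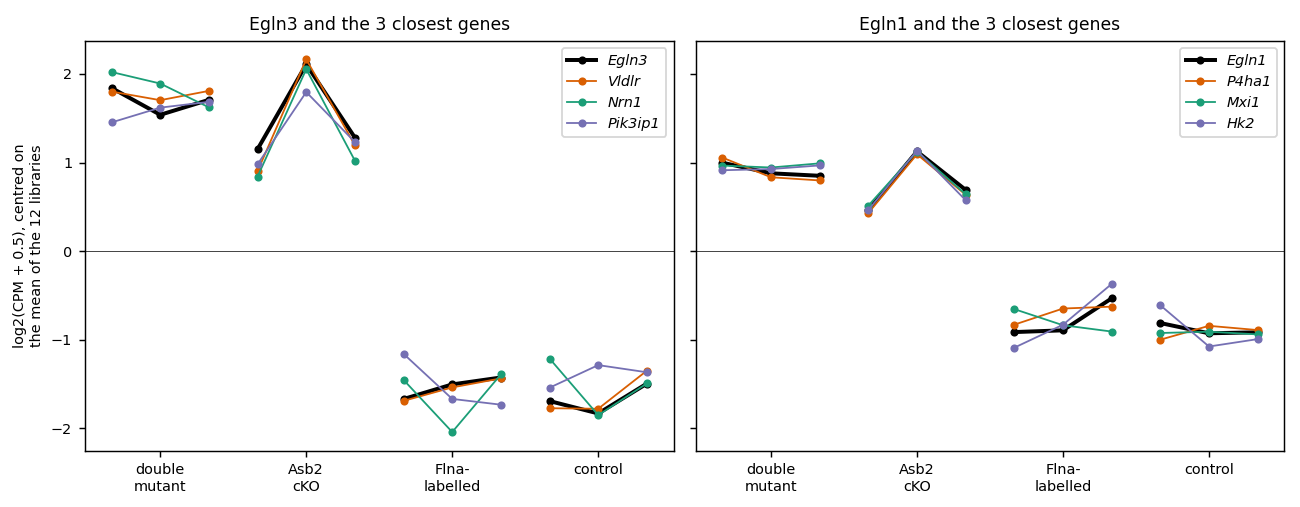
Centred log2(CPM + 0.5) of Egln3 (left) and Egln1 (right) and the 3 genes nearest to each over the 12 libraries, groups in the order double mutant, Asb2 cKO, Flna-labelled, control, with lines that only join libraries of a group. Vldlr follows Egln3 closest, with a mean distance of 0.0866.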

How the data were processed

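Hearts were dissected at embryonic day 9.5 and RNA was sequenced in 12 libraries. STAR, HTSeq and edgeR and the genome mm10 are named, without versions, annotation or strand setting, per the submitters' processing notes. The authors deposited 4 tables of gene values, whose coverage signal is CPM on a scaled library size (column sums 942334 to 1051801). Plain CPM had been assumed in the plan. The deposited values were whole multiples of 1 read in 100% of cases (within 0.01 read), so reads were recovered for the count tests. The authors' tables also hold log2 fold changes and p-values with FDR from their own test, and the deposited gene length (another unit, in bases), used for CPM per kb. The tables agreed where they shared libraries and were joined, and 12 columns without headers were not used.

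The comparisons were fitted in R 4.3.3 with limma 3.58.1, using its trend and robust options, on log2(CPM + 0.5). Genes had to average 1 CPM or more over the libraries of the fit. There was Benjamini-Hochberg adjustment over all genes tested and a threshold of 0.05. Each comparison used its own 6 libraries, and the interaction used all 12. Alternatives changed the pseudocount to 0.1 or 2, the minimum level to none or 5 CPM, the scaling to median of ratios and the limma options to none. The whole reads were also tested with edgeR 4.0.16 and DESeq2 1.42.0, and further fits took all groups jointly, added a replicate block or left out each library. Xist as a covariate, and the alternatives for the pathway lists, were added after the data were seen. The fits were also run on simulated counts with the same dispersion for every gene and no shifts of whole libraries. That run does not show how the fits behave with the scatter of these libraries. The scatter between replicates exceeded counting noise (median chi-square per gene 4.71 or more). Positions are from GENCODE M21 (GRCm38), and promoter windows, found for 8 of the 9 genes, from RefSeq (GRCm38.p6). Values were read with python 3.11.15, numpy 2.4.6 and pandas 2.3.3, and plots drawn with matplotlib 3.10.9.

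The 9 genes, the pathway lists and the marker lists were chosen with earlier results of these data known, so no pattern seen before is given as independent support. The text names all 9 genes, Asb2 and Flna, up to 4 called genes of each list in each direction with the smallest p and those at the extremes of each list, and the 3 closest profiles of each called gene, except that those of Epas1 are not reported here. Vegfa and the endothelial marker genes were named outside that rule, after their values were seen.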

Additional observations from a re-analysis of the deposited data

How the results depend on the processing

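Every call of the 9 genes against the control, and those of Egln1, Egln2, Egln3, Hif1a and Epas1 in double mutant against Flna-labelled hearts, kept direction and side of the threshold under all alternatives run. In Asb2 cKO against control hearts the joint fit of the 4 groups called 7 of the 9, adding Epas1, Hif1an and Vhl. Over all genes that joint fit called 4211, where the fit of the comparison's own 6 libraries called 3033. Leaving out single libraries gave 4 to 4 of the 9 genes. The counts without single libraries were 5 to 6 in double mutant against control, 6 to 7 in double mutant against Flna-labelled and 0 to 0 in the other comparisons. Of the values of single genes, 9 gained a call and 8 lost one. The causes were not tested.

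Counts over all genes moved more. In Asb2 cKO against control hearts (3033) they ran from 1581 to 2508 without single libraries. In Flna-labelled against control hearts (10) the count was 0 without trend or robust, 2 with edgeR and with the joint fit, 244 with DESeq2, 3 with Xist as a covariate and 0 to 98 without single libraries. In double mutant against control hearts (4523) it was 2669 with Xist as a covariate and 2875 to 4342 without single libraries. In double mutant against Asb2 cKO hearts (3) it was 14 with DESeq2, 0 with the joint fit, 0 with Xist and 2 to 26 without single libraries. In double mutant against Flna-labelled hearts (4394) it was 2712 to 4623 without single libraries. The interaction (0) gave 71 with DESeq2, 5 with Xist and 0 to 18 without single libraries.

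The count of cofactor and turnover genes called in double mutant against control hearts (7) was 4 without trend or robust and 2 with Xist as a covariate. Values that changed sign were all uncalled. In Flna-labelled against control hearts the log2 fold changes with Xist as a covariate were -0.0778 for Epas1, -0.18 for Hif3a, -0.13 for Egln1 and -0.18 for Egln3, and Hif3a was -0.0881 with edgeR and -0.0844 with DESeq2. In double mutant against Asb2 cKO hearts, Xist gave -0.0545 for Egln1 and -0.10 for Egln3. In the interaction, edgeR gave -0.00249 for Egln1 and -0.0343 for Egln3, and DESeq2 -0.022 for Egln3. Without single libraries, Hif3a in Asb2 cKO against control hearts ran from -0.11 to 0.75. In Flna-labelled against control hearts, Epas1 ran from -0.0505 to 0.149, Hif3a from -0.29 to 0.45, Egln1 from -0.0188 to 0.171 and Egln2 from -0.0302 to 0.106. In double mutant against Asb2 cKO hearts, Hif1a ran from -0.0351 to 0.126 and Vhl from -0.0656 to 0.0181, and Arnt in double mutant against Flna-labelled hearts from -0.0425 to 0.121. In the interaction, Hif3a ran from -0.0358 to 0.829, Egln1 from -0.10 to 0.23, Egln2 from -0.0146 to 0.19, Egln3 from -0.14 to 0.34 and Hif1an from -0.147 to 0.0347.

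Replicate numbers did not pair the samples consistently. Deviations from the group means correlated at -0.465 to 0.426 between libraries of equal number, and 0 of 6 pairs of groups had every correlation over 0.1. Between double mutant and Flna-labelled libraries the correlations were all positive, at 0.275, 0.032 and 0.426 for numbers 1, 2 and 3. With a replicate block the counts of the 9 genes stayed at 4 in Asb2 cKO against control, 5 in double mutant against control and 7 in double mutant against Flna-labelled hearts. Over all genes the block gave 1557 in Asb2 cKO against control and 1 in Flna-labelled against control hearts, where the fits without it gave 3033 and 10. It gave 4358 in double mutant against control and 5474 in double mutant against Flna-labelled hearts, where the fits without it gave 4523 and 4394. Depth did not leave any of the 9 genes below 300 reads in a library, and the number of libraries limits the smaller differences.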
